A study of Ovis aries with 12 samples.

Results

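Gene expression in the corpus luteum of pregnant ewes was compared between day 14 and day 12, with 3 ewes and 1 array each per day. These 6 arrays were chosen by the source label of the sample, out of 12 in the series. All 12 glands came from sheep, were snap frozen and gave total RNA that was labelled with biotin and hybridised to Affymetrix bovine arrays. The pregnant ewes had been bred to a fertile ram. The other 6 ewes were not bred, were followed with a vasectomized ram and were sampled on the same days, 3 each, and serve here only where the pregnant gland is set against the cyclic one. No treatment, genotype, breed or age was named in the labels. The sample titles name day 12 of pregnancy throughout and so disagree with the source label for 9 of the 12 arrays, the 3 pregnant day 14 arrays among them. Values are log2 levels of 24016 probe sets, and differences are log2 differences, day 14 minus day 12, ± standard error of the fit. Within a group, array values are listed in the order of replicates 1, 2 and 3.

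The corpus luteum forms from the ovulated follicle and secretes progesterone, which maintains pregnancy. In a cyclic ewe, pulses of prostaglandin F2α from the uterus, relayed with oxytocin, end its function and then its structure, a process called luteolysis. In a pregnant ewe the elongating conceptus secretes interferon tau, which blunts these pulses and so rescues the gland. Interferon also acts outside the uterus, where it induces a wide set of genes known as interferon-stimulated genes. Per its title, the study concerns pregnancy-associated genes and resistance of the gland to luteolysis.

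The 6 pregnant arrays were alike in their correlations. Correlations over all probe sets were 0.992 to 0.994 within day 12, 0.993 to 0.994 within day 14 and 0.992 to 0.994 between the days. The day 12 non-pregnant arrays were as close, at 0.9915 to 0.9942 with day 12 and 0.9926 to 0.9949 with day 14 of pregnancy. Array medians lay between 5.16 and 5.24 in the whole series. The 3′ minus 5′ difference of the actin and GAPDH control probe sets, a measure related to RNA integrity, was 1.58 ± 0.016 on day 12 and 1.51 ± 0.082 on day 14 (log2, SD, n = 3). A two-sided exact permutation test gave p = 0.4, where 0.1 is the smallest p that 3 against 3 can give. The description labels call 4 arrays of the series gene arrays and 8 genome arrays, here batch A and batch B. Whether the names stand for separate array designs or only for separate runs is not given in the sources used here, so a batch is only a group of arrays of 1 name. Each pregnant group held 1 array of batch A, replicate 3, and 2 of batch B, so values within batches compare 1 ewe with 1 ewe and 2 with 2. The 9 steroidogenic cell markers measured, all in the brightest quartile of probe sets, had a mean level of 10.90 to 10.94 on the day 12 arrays and 10.82 to 11 on the day 14 arrays.

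The main result was how little differed. In limma, 0 of 24016 probe sets passed an adjusted p of 0.05 (0%), with a smallest adjusted p of 0.228 for a dim probe set without a gene symbol. At an unadjusted p under 0.05 there were 1063 probe sets (4.43%), 532 higher and 531 lower on day 14. A test that misses its threshold does not show a gene to be unchanged, so the interval of each difference was read as well. A probe set was called constant where the 95% interval lay wholly within 0.5 of 0 on the log2 scale, which is 1.41-fold either way. By this rule 19465 probe sets were constant (81.1%), and 4551 were neither constant nor past the threshold. For 23550 the interval lay within 1, or 2-fold, and for 2370 it lay within 0.25, or 1.19-fold. The median difference was -0.0049, the median size of a difference was 0.088, and the 5th and 95th percentiles were -0.23 and 0.24. The median interval reached 0.26 to either side, which is the precision that the number of arrays gives for a typical probe set.

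Constancy was not a matter of dim probe sets alone. The share of constant probe sets was 89.2% in the dimmest quartile by mean level, then 80.1% and 76.5%, and 78.4% in the brightest quartile. Of the probe sets with an interval within 0.25, 714 were in the brightest quartile, over a level of 7.01. At the other end, 24 probe sets had a difference over 1 in size, 14 higher and 10 lower. The groups did not overlap in 17 of these, and the interval kept clear of 0 in 17.

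In the same fit, 94 probe sets passed between the days in non-pregnant ewes (0.391%), 70 higher and 24 lower, and 15038 were constant, or 62.6%. There, 222 probe sets had a difference over 1 in size. The median standard error was 0.14 there, against 0.12 for the pregnant ewes. Of the non-pregnant arrays, 2 of the 3 of day 14 and 0 of the 3 of day 12 were of batch A. The difference between those days therefore rests on the batch term, while each pregnant group held 1 array of batch A. Day 14 arrays without pregnancy were the least like the rest, with correlations to the pregnant arrays down to 0.982. Of the 94 probe sets, 51 were constant in pregnant ewes (54.3%), beside 81.1% of all probe sets. The count of 94 was 47, 28 and 32 without day 12 non-pregnant replicate 1, 2 and 3 in turn, 254 without replicate 2 of day 14, and 118 and 131 without its replicates 1 and 3. The 70 that rose in non-pregnant ewes had a median difference of 1.27 there and of 0.031 in pregnant ewes. The 24 that fell had medians of -1 and 0.14. Both sets were picked by their difference in non-pregnant ewes, so larger medians there follow from the choice. The difference between the day differences, the interaction, was tested for every probe set. It passed for 19 of the 94 and is given per gene at the end.

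**Figure D1:**
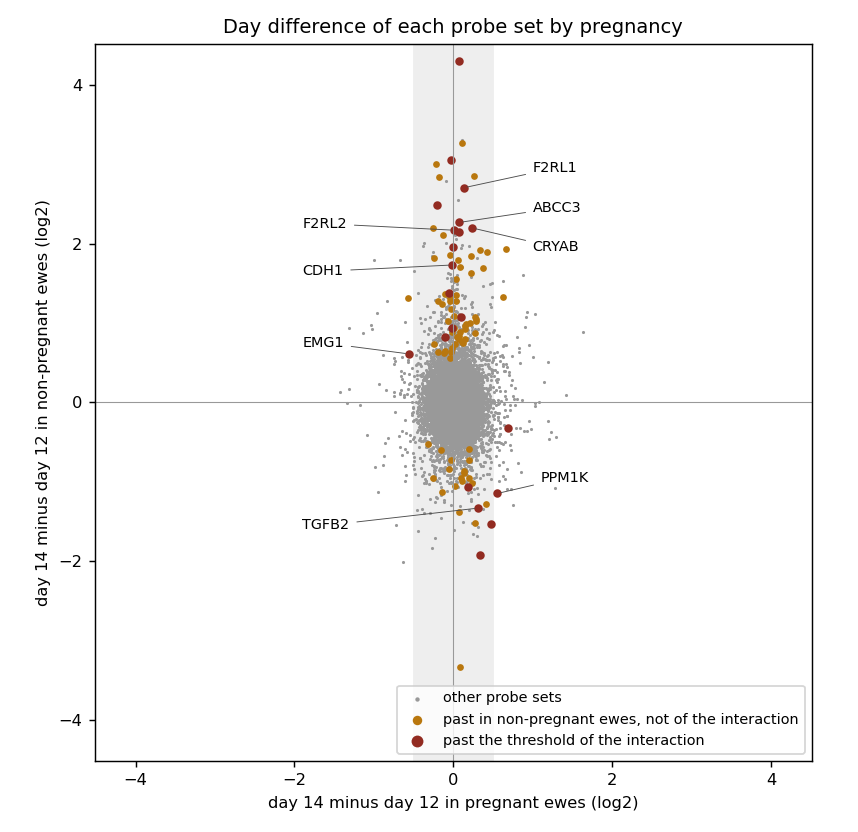
Day difference of each of the 24016 probe sets in pregnant ewes (x axis, log2) and in non-pregnant ewes (y axis, log2), with the band of 0.5 either side of 0 in the pregnant ewes shaded. The 94 probe sets past the threshold in non-pregnant ewes and the 21 past that of the interaction spread along the y axis, and most lie within the band on the x axis. The 94 were picked by their difference on the y axis.

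The main genes of progesterone synthesis were each constant by the interval rule. STAR, which brings cholesterol into mitochondria, was at 12.98, 12.91 and 13.18 on day 12 and at 13.12, 13.11 and 13.13 on day 14. The arrays overlapped, and its difference of 0.096 had a 95% interval of -0.18 to 0.38. CYP11A1, the side-chain cleavage enzyme that makes pregnenolone, was at 11.86, 11.77 and 11.89 on day 12 and at 11.81, 11.88 and 11.63 on day 14 (-0.070 ± 0.10). HSD3B1, which turns pregnenolone into progesterone, was at 12.24, 12.28 and 12.16 and then at 12.24, 12.33 and 12.05 (-0.024 ± 0.13). Also constant was NR5A2, a nuclear receptor of the steroidogenic program, at 8.80, 8.33 and 8.39 on day 12 and 8.71, 8.71 and 8.50 on day 14 (0.14 ± 0.12). The constant call of CYP11A1 and HSD3B1 was kept with each array left out, that of STAR was lost without day 12 pregnant replicate 3 (0.25) and that of NR5A2 without day 12 pregnant replicate 1 (0.26). Of 21 genes of progesterone synthesis and its regulation, 17 were constant, or 81.0%, close to the 79.3% of all 9155 genes, each taken by its brightest probe set. Their median difference was -0.050, beside -0.015 over all genes. Only AKR1C3, a dim gene of steroid and prostaglandin reduction, was higher at an unadjusted p under 0.05 (0.29 ± 0.11), and 0 were lower. Over all genes 2.0% were higher and 2.57% lower by that rule. The constant members with the narrowest intervals were FDX1, the electron donor of CYP11A1 (-0.074, from -0.29 to 0.15), CYP11A1 itself and GATA4, a transcription factor of gonadal cells (-0.050, from -0.27 to 0.17).

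**Figure D2:**
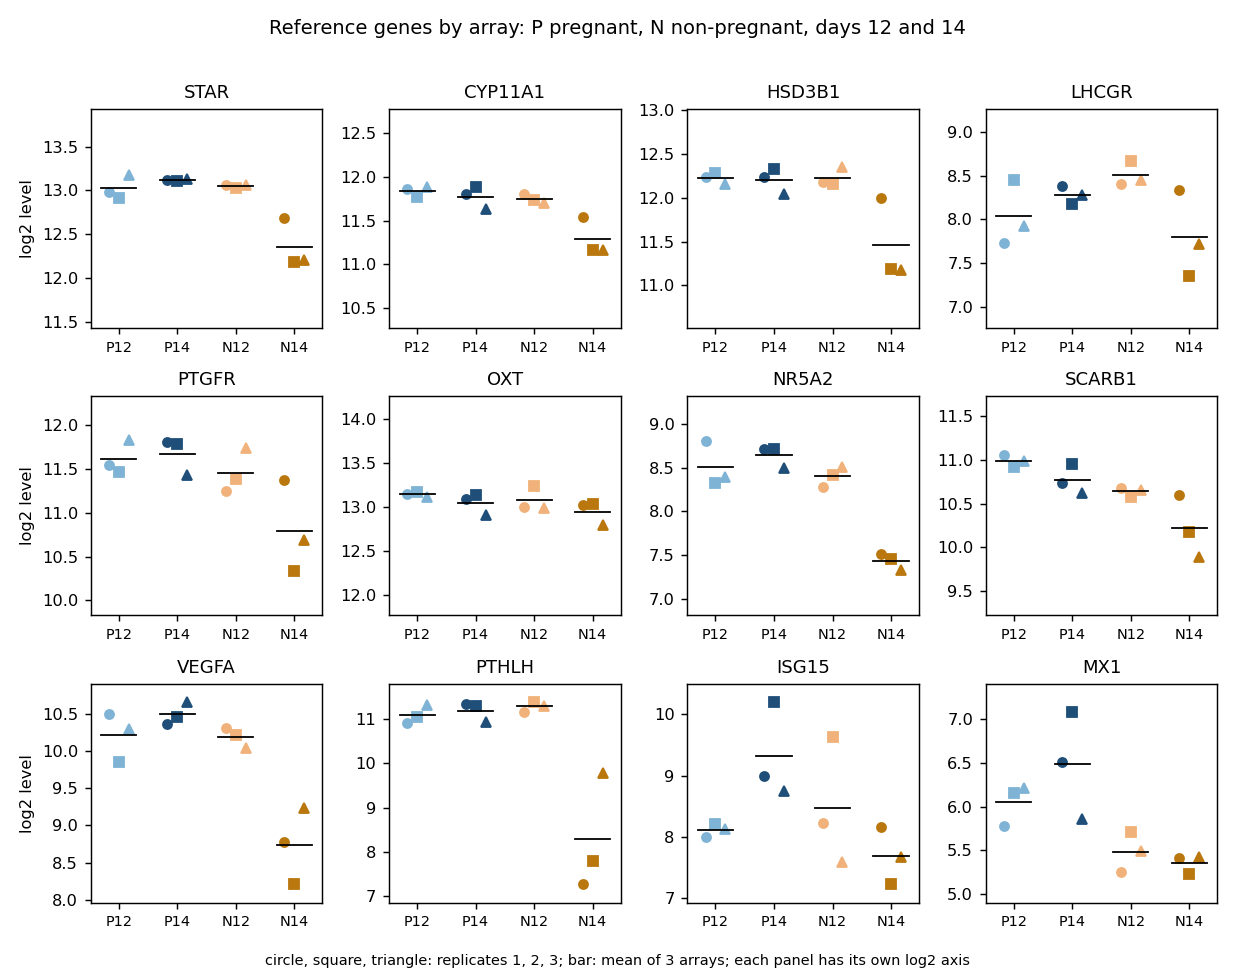
Log2 level of 12 reference genes in each array, by group (P pregnant, N non-pregnant, days 12 and 14), with the mean of 3 arrays as a bar and an axis of its own per panel. STAR, CYP11A1, HSD3B1, OXT and NR5A2 lie at one level on both days of pregnancy, while the 3 day 14 arrays of ISG15 lie above the 3 day 12 arrays.

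Genes of cholesterol supply had wider intervals. Each array is 1 ewe, so a standard error holds spread between ewes as well as of measurement, and these were not told apart. The mean level of the cholesterol biosynthesis genes was 8.905, 8.466 and 8.494 on day 12 and 8.693, 8.619 and 8.681 on day 14. Of 21 genes of cholesterol biosynthesis, 8 were constant, beside 79.3% of all genes, with a median standard error of 0.19 against 0.12 over all probe sets. In limma 0 passed after adjustment, 0 had an unadjusted p under 0.05 and 0 had groups without overlap, with a median of 0.0071. The smallest p belonged to SREBF1, a regulator of lipid genes (-0.29 ± 0.18), and to LSS (0.22 ± 0.16) and DHCR7 (0.22 ± 0.20), both enzymes of sterol synthesis. Their regulator SREBF2 was constant, at 8.38, 8.19 and 8.14 on day 12 and 8.13, 8.31 and 8.20 on day 14. Of 19 genes of cholesterol uptake, storage and efflux, 8 were constant and 0 had an unadjusted p under 0.05, with a median of -0.056. SCARB1, the receptor that takes up cholesterol from HDL, was at 11.06, 10.92 and 10.99 and then at 10.73, 10.95 and 10.62 (-0.23 ± 0.13). Its interval, from -0.51 to 0.054, reached just past the band. NPC1, which exports cholesterol from lysosomes, was constant at 0.21 ± 0.11.

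The receptors for luteinizing hormone and prostaglandin F2α, through which the gland is kept or ended, overlapped between the days. LHCGR, the luteinizing hormone receptor, was at 7.73, 8.45 and 7.92 on day 12 and at 8.38, 8.17 and 8.28 on day 14 (0.24 ± 0.21). PTGFR, the receptor for prostaglandin F2α, was at 11.55, 11.47 and 11.83 and then at 11.81, 11.78 and 11.43 (0.053 ± 0.21). The intervals, -0.21 to 0.70 for LHCGR and -0.41 to 0.51 for PTGFR, left the band of 0.5, so neither counts as constant. The difference of PTGFR was -0.040 without day 12 pregnant replicate 1, -0.080 without replicate 2 of that group and 0.36 without replicate 3. OXT, which encodes luteal oxytocin, was constant, at 13.15, 13.17 and 13.12 on day 12 and 13.09, 13.14 and 12.91 on day 14. Of 30 hormone receptors and signal transducers, 19 were constant and 2 were higher at an unadjusted p under 0.05, PRLR, the prolactin receptor (0.33 ± 0.13), and AGTR2, a dim angiotensin II receptor (0.31 ± 0.12). Both were without overlap above, as was EDNRB, a dim endothelin receptor named after its values were seen (0.15 ± 0.098, constant), and PRKCA, a protein kinase C, was without overlap below (-0.22 ± 0.11, constant). Over all genes 79.3% were constant, 2.0% were higher at that p, 4.42% were without overlap above and 6.30% below. GNAS, the stimulatory G protein behind LHCGR, and PRKAR1A, a regulatory subunit of protein kinase A, were constant at 0.094 ± 0.090 and -0.11 ± 0.089.

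Of 14 genes of prostaglandin synthesis, transport and breakdown, 8 were constant (57.1%, beside 79.3% of all genes), and the median was -0.057. At an unadjusted p under 0.05, 2 were higher, AKR1C3 and PTGIS, beside 2.0% of all genes. PTGIS, prostacyclin synthase, was at 5.97, 6.31 and 6.36 on day 12 and at 6.72, 6.43 and 6.90 on day 14, with no overlap (0.47 ± 0.20, adjusted p = 0.992 in limma). HPGD, which breaks prostaglandins down, was at 0.47 ± 0.29, with overlap. Of 33 angiogenic factors and receptors, 14 were constant (42.4%, beside 79.3% of all genes), with a median of -0.022. At an unadjusted p under 0.05, 1 was higher and 2 were lower, beside 2.0% and 2.57% of all genes. VEGFA, the main endothelial growth factor, was at 10.50, 9.85 and 10.30 and then at 10.36, 10.45 and 10.66 (0.27 ± 0.23), with overlap. Its receptors differed in sign among themselves: KDR was at -0.27 ± 0.10 and the co-receptor NRP1 at 0.26 ± 0.12. The angiopoietin receptor TEK was at 0.36 ± 0.19 and its relative TIE1 at -0.23 ± 0.085. KDR and TIE1 still counted as constant, because their intervals stayed within the band. With each of the 12 arrays left out, that call held in all for TIE1 and in 3 for KDR, those without day 14 pregnant replicate 3 and without day 14 non-pregnant replicate 1 or 2, with differences of KDR from -0.33 to -0.15.

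Of the 38 gene lists, interferon-stimulated genes had the highest median difference. Of 47 measured, 43 were above 0, 17 were higher and 0 lower at an unadjusted p under 0.05, beside the 2.0% and 2.57% of all genes. In 21 of them the 3 day 14 arrays all lay above the 3 day 12 arrays, where 4.42% of all genes did, and in 1, HERC5, a dim gene, they all lay below, where 6.30% of all genes did. The median difference was 0.26, beside -0.015 over all genes, and 16 of the 47 were constant. None passed after adjustment over all probe sets in limma, where the smallest adjusted p of a member was 0.840. The mean level of the 47 was 6.43 to 6.53 on the day 12 arrays and 6.74 to 6.96 on the day 14 arrays. In bulk tissue, fewer or more cells of a type and less or more RNA per cell cannot be told apart, here and in all that follows.

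ISG15, a ubiquitin-like protein, was at 8.0, 8.21 and 8.13 on day 12 and at 8.99, 10.20 and 8.75 on day 14. The groups did not overlap, and replicate 2 was the highest on day 14. Its difference was 1.20 ± 0.44, or 2.30-fold (adjusted p = 0.992 in limma). In non-pregnant ewes ISG15 was at 8.22, 9.62 and 7.60 on day 12 and at 8.16, 7.23 and 7.68 on day 14, so 1 array without pregnancy also lay above 9. CXCL10, a chemokine that draws T cells, was at 5.23, 4.85 and 5.34 and then at 5.91, 6.71 and 5.89 (1.03 ± 0.23, adjusted p = 0.840 in limma). IFI27, a mitochondrial protein, was at 9.98, 9.60 and 10.29 and then at 10.78, 11.25 and 10.51 (0.89 ± 0.22). Neither overlapped, and replicate 2 was again the highest of day 14 in both. IFIT5, which binds foreign RNA, was at 9.68, 9.82 and 9.91 and then at 10.29, 10.23 and 10.17 (0.43 ± 0.095). GBP5, a guanylate-binding protein, was at 6.53, 6.28 and 6.13 and then at 6.99, 6.71 and 6.94 (0.57 ± 0.13). In these, the day 14 arrays lay closer together. Over the 4 probe sets of GBP5 the median was 0.24, and 2 of the 4 were constant. MX1, an antiviral GTPase, was at 5.78, 6.16 and 6.21 on day 12 and at 6.51, 7.08 and 5.86 on day 14, so its groups overlapped (0.43 ± 0.23).

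Further members were picked after their values were seen. The transcription factors that carry the interferon signal, STAT2 (0.29 ± 0.10) and IRF9 (0.47 ± 0.13), were both without overlap. RSAD2, an antiviral enzyme, was at 0.97 ± 0.30 and IFI6 at 0.95 ± 0.32, also without overlap. IFI16, a DNA sensor, had the highest value of the list, 1.29 ± 0.47, with day 12 replicate 1 at 5.54 against 7.71 and 7.49 in the other two. The receptor chains IFNAR1 (0.042 ± 0.12, dim) and IFNAR2 (0.073 ± 0.16) and the kinase target IRF3 (0.061 ± 0.14) were constant. So was NMI, an interferon-induced adaptor with the narrowest interval, at 9.23, 9.17 and 9.18 on day 12 and 9.18, 9.24 and 9.23 on day 14.

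Within batch A 38 of the 47 were above 0 with a median of 0.21, and within batch B 42 were, with a median of 0.24. With any 1 of the 12 arrays left out, 40 to 43 were above 0 and the median was 0.20 to 0.32. The count at an unadjusted p under 0.05 was 17, and it was 11 without day 12 pregnant replicate 1 and 10 without day 14 pregnant replicate 2, with all others from 13 to 20. In non-pregnant ewes 9 of the 47 were above 0 between the days, with a median of -0.23, and 7 to 16 were with 1 of their arrays left out (16 without day 12 replicate 2, median -0.15). The interaction of day and pregnancy was above 0 for 41 members, with an unadjusted p under 0.05 for 27 and an adjusted p under 0.05 for 0 in limma. The 26 T and NK cell markers had a mean level of 4.58 to 4.72 on day 12 and 4.71 to 4.90 on day 14, and the 18 macrophage markers of 6.09 to 6.27 and 6.12 to 6.51. Their part in the interferon group's values was not tested.

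**Figure D3:**
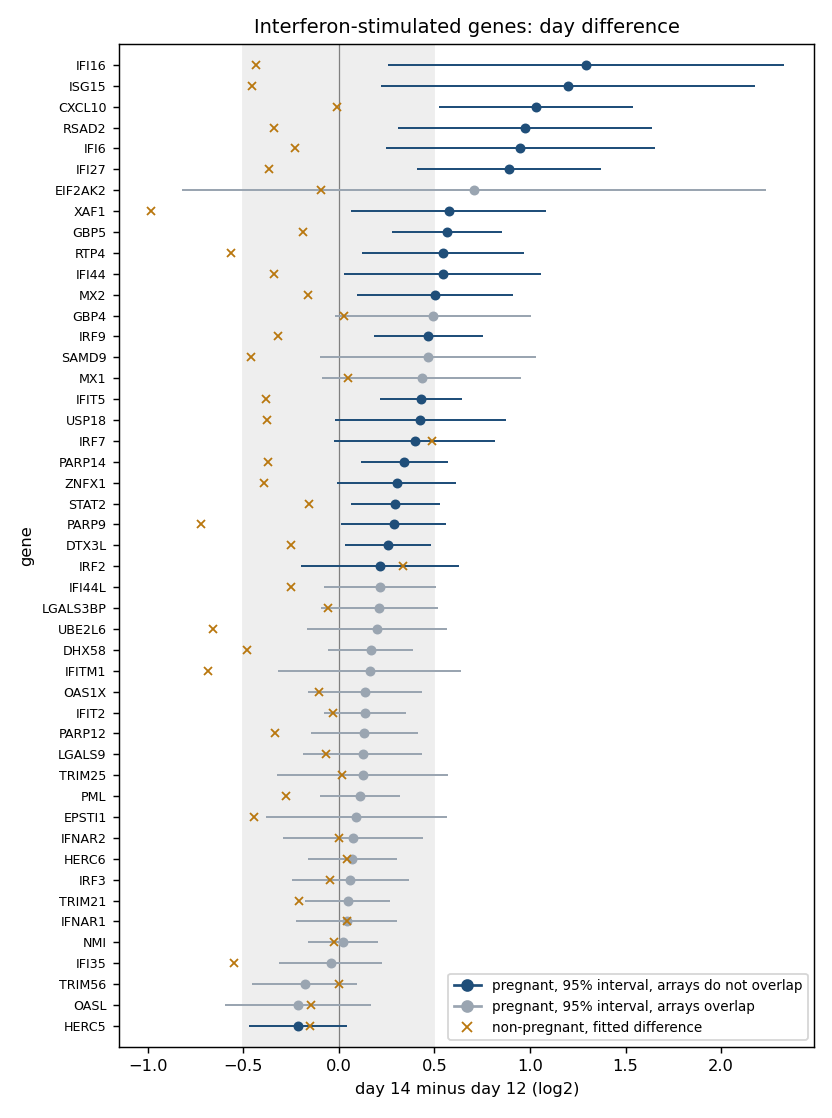
Day difference of the 47 interferon-stimulated genes in pregnant ewes (points, with 95% interval) and in non-pregnant ewes (crosses), on a log2 axis with the band of 0.5 shaded. In pregnant ewes 43 points lie above 0 and 21 of them are from arrays that do not overlap with day 14 above, while in non-pregnant ewes 9 crosses lie above 0.

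Class II antigen presentation, by which macrophages, dendritic cells and B cells show peptides to helper T cells, leaned the same way in part. Of 14 genes, 9 were above 0, 6 were higher at an unadjusted p under 0.05, beside 2.0% of all genes, and 4 were without overlap above, beside 4.42%. The median was 0.18, and 6 were constant. BOLA-DRA, the alpha chain of the DR molecule, was at 8.47, 8.22 and 8.31 on day 12 and at 8.77, 9.77 and 9.47 on day 14, or 2.0-fold (1.0 ± 0.28, adjusted p = 0.992 in limma). Its partner BOLA-DRB3 was at 8.16, 8.24 and 7.90 and then at 8.68, 9.32 and 8.84 (0.85 ± 0.32). BOLA-DMB, which helps to load peptide, was at 0.40 ± 0.13 with overlap. CTSS, the protease that trims the invariant chain, was at 0.40 ± 0.18 with overlap. In both DR chains day 14 replicate 1 was the lowest of its group and still lay above every day 12 array. The 3 dim members, BOLA-DYA, BOLA-DYB and BOLA-DQA5, were at -0.14, -0.033 and -0.024 and were constant, and without dim members the median was 0.40. The count of 6 was 1 without day 14 pregnant replicate 2, 2 without day 12 pregnant replicate 3 and 3 without day 12 pregnant replicate 1, with medians of 0.043, 0.034 and 0.26, and it was 4 to 6 with any other array left out. Without pregnancy, 9 of the 14 were also above 0 between the days, with a median of 0.086. The interaction of day and pregnancy had an unadjusted p under 0.05 for 1 of the 14 and an adjusted one for 0 in limma. Bovine probe sets of this polymorphic family may take signal from related genes, so its members are not independent.

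Class I presentation, which all nucleated cells share, held closer. Of 17 genes, 13 were constant, 1 was higher at an unadjusted p under 0.05 and the median was 0.066. That gene was B2M, the light chain of class I molecules, at 10.90, 11.06 and 11.14 on day 12 and 11.32, 11.48 and 11.44 on day 14, without overlap (0.37 ± 0.091, adjusted p = 0.992 in limma). The peptide transporters TAP1 (0.17 ± 0.091) and TAP2 (0.21 ± 0.097) were constant. Of the 26 T and NK cell markers, 19 were above 0, 3 were higher at an unadjusted p under 0.05, beside 2.0% of all genes, and 4 were without overlap above, beside 4.42%. The median was 0.17, and 13 were constant, beside 79.3% of all genes. CD3G, a chain of the T cell receptor complex, was at 4.61, 4.41 and 4.77 and then at 5.08, 5.67 and 5.27, with no overlap (0.74 ± 0.16, adjusted p = 0.840 in limma). CD247, the zeta chain, was at 7.11, 7.42 and 7.52 and then at 7.57, 7.85 and 7.90, also with no overlap (0.43 ± 0.12). CD8A was at 0.26 ± 0.11 with overlap, and CD28, KLRB1 and KLRK1 were dim. CD3D (0.15 ± 0.090) and FOXP3, which marks regulatory T cells (-0.080 ± 0.084), were constant. The median was 0.077 without day 14 pregnant replicate 2, and the count of 3 was 5 without day 12 pregnant replicate 1 or day 14 pregnant replicate 1 and 2 without day 14 pregnant replicate 2 or day 12 pregnant replicate 3.

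The respiratory chain passes electrons to oxygen in mitochondria. Of 55 subunits measured, 52 were below 0, 21 were without overlap below, beside 6.30% of all genes, 11 were lower at an unadjusted p under 0.05, beside 2.57%, 0 were higher, and 0 passed after adjustment in limma. The sizes were small: the median was -0.15, the range was -0.31 to 0.046, and 49 were constant by the interval rule. The mean level of the 55 was 9.90 to 9.98 on day 12 and 9.76 to 9.87 on day 14. Complex I, which takes electrons from NADH, had 36 subunits, of which 36 were below 0, 10 were without overlap, 8 had an unadjusted p under 0.05 and 32 were constant (median -0.16). Complex III, which passes them to cytochrome c, had 7, all 7 below 0 and 5 without overlap (median -0.15). Complex IV, cytochrome oxidase, had 8, of which 6 were below 0, 5 without overlap and 8 constant (median -0.12). Complex II had 4, with a median of -0.10, and ATP synthase was not in the list.

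CYC1, a cytochrome of complex III, was at 10.66, 10.73 and 10.74 on day 12 and at 10.33, 10.39 and 10.49 on day 14. The groups did not overlap, and the arrays of each lay close together (-0.31 ± 0.088, adjusted p = 0.992 in limma). UQCRC1, a core protein of the same complex, was at 10.06, 10.18 and 10.12 and then at 9.79, 9.70 and 9.99 (-0.29 ± 0.095). NDUFS7, of complex I, was at 10.06, 10.15 and 10.15 and then at 9.92, 9.83 and 9.84 (-0.26 ± 0.099). NDUFA1, also of complex I, was at 11.43, 11.49 and 11.39 and then at 11.30, 11.38 and 11.33 (-0.100 ± 0.080). It was constant, and its groups did not overlap either. The values were uneven over the batches: within batch B 53 of 55 were below 0 with a median of -0.20, and within batch A 32 were, with a median of -0.016, and the part of the batch was not tested. Within batch A, 17 of the 36 complex I subunits were below 0, and within batch B 35 were. The count of 11 was 2 without day 12 pregnant replicate 2, 3 without day 14 pregnant replicate 1, 4 without day 14 pregnant replicate 2, 5 without day 12 pregnant replicate 1 and 21 without day 14 pregnant replicate 3. It was 4 when only the 6 pregnant arrays were fitted. The median was -0.12 to -0.23 over the left-out arrays, with 52 to 54 subunits below 0. In non-pregnant ewes the median was -0.034, and the interaction had an unadjusted p under 0.05 for 2 of the 55 and an adjusted one for 0.

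**Figure D4:**
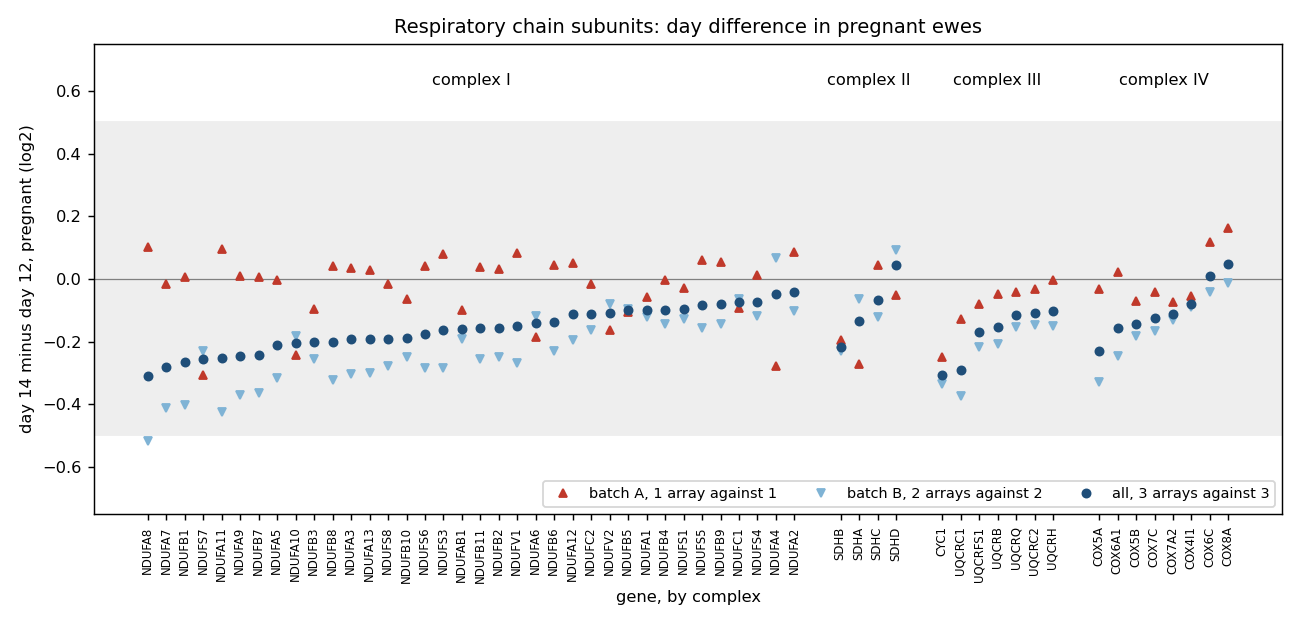
Day difference in pregnant ewes (log2) of 55 respiratory chain subunits by complex, over all arrays (circles, 3 against 3), within batch A (upward triangles, 1 against 1) and within batch B (downward triangles, 2 against 2), with the band of 0.5 shaded. The circles lie below 0 for 52 subunits, and the batch A triangles for 32.

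Cell division genes were split by batch. Of 46, 38 were below 0 with a median of -0.16, and 20 were constant, beside 79.3% of all genes. At an unadjusted p under 0.05, 1 was lower, beside 2.57% of all genes, and 2 were without overlap below, beside 6.30%. Within batch B 40 were below 0 with a median of -0.35, and within batch A 38 were above 0 with a median of 0.20. KIF2C, a kinesin of the mitotic spindle, was at 5.52, 5.07 and 4.96 on day 12 and at 4.86, 4.73 and 4.83 on day 14 (-0.38 ± 0.15). BIRC5, which encodes survivin, was at 6.43, 6.25 and 5.77 and then at 5.73, 5.64 and 5.83 (-0.41 ± 0.19). KIF2C was without overlap and BIRC5 was not, because day 12 replicate 3, of batch A, was below a day 14 array. MCM7, a helicase subunit for DNA replication, was constant at -0.026. The count of 1 was 10 without day 14 pregnant replicate 3, 6 without day 12 pregnant replicate 3 and 0 without day 12 pregnant replicate 1, day 14 pregnant replicate 1 or day 14 pregnant replicate 2. The median was -0.30 without day 14 pregnant replicate 3, -0.28 without day 12 pregnant replicate 3, -0.080 without day 12 pregnant replicate 1 and -0.090 without day 14 pregnant replicate 2. In non-pregnant ewes the fall was larger, with 3 of the 46 above 0 and a median of -0.47. That median was -0.37 to -0.55 with 1 of their arrays left out. The interaction was above 0 for 40 of the 46, with an unadjusted p under 0.05 for 12 and an adjusted one for 0 in limma.

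The genes most often induced early in luteolysis, immediate early transcription factors and related ones, did not lean upward. Of 25, 8 were above 0, 0 had an unadjusted p under 0.05 and the median was -0.050, while in non-pregnant ewes 18 were above 0 with a median of 0.50. That value rested on 1 array: the mean level of the list was 7.81, 7.43 and 9.34 on the day 14 non-pregnant arrays, and without replicate 3 the median was 0.13 with 15 of 25 above 0. Only 5 were constant, and the fit's standard errors were large. EGR1, a transcription factor of this early response, was at 11.43, 10.99 and 10.92 on day 12 and at 10.65, 9.75 and 9.98 on day 14, without overlap (-0.98 ± 0.75). IER2 was at 10.10, 9.85 and 9.49 and then at 9.24, 9.20 and 9.28, also without overlap (-0.57 ± 0.45). FOS, DUSP1 and NR4A1, named after their values were seen, were without overlap below too, at -0.88, -0.44 and -0.36. In all, 5 of the 25 were without overlap below, beside 6.30% of all genes. The standard errors pool the spread of all 4 groups, and that of EGR1 is larger than the spread of its pregnant arrays shows. Over the 2 probe sets of EGR1 the median was -0.52, and 1 of the 2 was constant. GADD45A, a growth arrest gene, was above without overlap (0.32 ± 0.25), and JUN was constant, at 11.34, 11.23 and 11.26 on day 12 and 11.32, 11.39 and 11.05 on day 14.

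Among single genes, the smallest p upward belonged to A2M, a broad protease inhibitor that also binds cytokines. It was at 7.0, 7.37 and 7.18 on day 12 and at 8.06, 8.28 and 8.91 on day 14, with no overlap, or 2.35-fold (1.23 ± 0.23, adjusted p = 0.840 in limma). NTN4, a netrin of basement membranes, was at 6.23, 6.65 and 6.83 and then at 7.18, 7.23 and 7.62 (0.78 ± 0.15). ATP6AP2, the prorenin receptor and a partner of the proton pump, was at 10.09, 9.66 and 9.60 and then at 10.33, 10.43 and 10.38 (0.60 ± 0.15). In each of these the lowest day 14 array lay above the highest day 12 array. Over the 2 probe sets of ATP6AP2 the median was 0.32, and 1 of the 2 was constant. The other upward genes of this ranking were CCPG1, a receptor for autophagy of the endoplasmic reticulum (0.44 ± 0.085), DPP4, a cell surface peptidase (0.51 ± 0.11), and DNAJC27 (0.71 ± 0.17), beside CD3G, IFIT5, CXCL10, GBP5, B2M and IFI27 above. All 12 were without overlap, beside 4.42% of all genes, but they were picked by p on the same arrays.

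Downward, the smallest p belonged to F10, coagulation factor X, at 4.32, 4.24 and 4.35 on day 12 and 3.79, 3.70 and 3.90 on day 14 (-0.50 ± 0.089, adjusted p = 0.840 in limma). SLC31A1, the copper importer, was at 9.68, 9.75 and 9.63 and then at 9.04, 9.12 and 9.24 (-0.55 ± 0.11). LRFN5, a neuronal adhesion protein, was at 5.76, 4.51 and 5.03 and then at 3.90, 4.01 and 3.86 (-1.18 ± 0.25). None of these overlapped, and the 3 day 14 arrays of LRFN5 lay close together while its day 12 arrays spread. NCF4, a subunit of the phagocyte oxidase, was at 7.74, 7.66 and 7.43 and then at 6.54, 7.09 and 6.97 (-0.74 ± 0.19). EMG1, needed to make ribosomes, was at 8.54, 8.64 and 8.02 and then at 7.80, 7.97 and 7.76 (-0.56 ± 0.11). NUDT14, which splits UDP-glucose (-0.44), LITAF (-0.41), ADAP1 (-0.45), TMEM120A (-0.40), GOLT1A (-0.36, dim), CYC1 and ASCC1 (-0.54) completed the 12. Of these, also picked by p on the same arrays, only ASCC1 overlapped between the days. It was at 7.05, 6.77 and 6.28 and then at 6.41, 6.43 and 5.64. Of the genes with a difference over 1 in size, SST, which encodes somatostatin (-1.32 ± 0.41), CCN1, a matricellular protein (-1.33 ± 0.59), and UBD, an interferon-inducible ubiquitin-like protein (1.19 ± 0.33), are named after their values were seen, and all 3 were without overlap.

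In growth factor systems, the small p-values belonged to single members. Of 18 genes of the insulin-like growth factor system, 12 were constant (66.7%), 1 was higher and 2 lower at an unadjusted p under 0.05. Over all genes 79.3% were constant, 2.0% higher and 2.57% lower by these rules. IGFBP3, a binding protein that holds the growth factor in the circulation, was at 8.69, 8.24 and 8.30 on day 12 and at 7.84, 8.06 and 7.60 on day 14, without overlap (-0.57 ± 0.21). IGFBP2, another, was at 7.21, 7.26 and 7.42 and then at 6.47, 7.23 and 6.79 (-0.47 ± 0.17), with overlap, and the protease PAPPA, which cleaves binding proteins, was at 0.23 ± 0.10. IGF1 itself was constant, at 7.13, 7.16 and 7.38 and then at 7.11, 7.27 and 7.37. Of 31 genes of activin, BMP and TGF-beta signalling, 19 were constant. FST, follistatin, which neutralizes activin, was at 10.17, 10.71 and 10.25 and then at 10.70, 11.58 and 10.59 (0.58 ± 0.23), with overlap, and the receptor TGFBR1 was constant at -0.26 ± 0.10. SMAD3, a transducer of that receptor, was constant at -0.020. PTHLH, parathyroid hormone-related protein, was at 10.90, 11.04 and 11.31 and then at 11.33, 11.28 and 10.92, with overlap and a wide interval (0.088 ± 0.44, from -0.87 to 1.05).

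Of 24 genes of WNT signalling, 12 were constant, beside 79.3% of all genes, and CTNNB1, beta-catenin, had the narrowest interval (0.054, from -0.12 to 0.23). SFRP4, a secreted inhibitor, was at -0.43 ± 0.18 with overlap. SPP1, osteopontin, a matrix protein and cytokine, was at 11.42, 10.53 and 10.66 on day 12 and at 11.38, 11.91 and 11.81 on day 14 (0.83 ± 0.24). It overlapped through day 12 replicate 1 alone. It was the only one of 29 genes of matrix remodelling with an unadjusted p under 0.05, and 19 of the 29 were constant. MT1A, a metallothionein that binds zinc and copper, was at 12.15, 11.06 and 10.36 and then at 11.75, 12.17 and 12.28 (0.88 ± 0.32), with overlap. SOD3, extracellular superoxide dismutase, was at 8.73, 7.91 and 7.86 and then at 8.89, 8.59 and 9.87 (0.95 ± 0.45), with overlap, and both of its probe sets were above 0. Of all 36 antioxidant genes 25 were constant (69.4%), beside 79.3% of all genes, and 3 were without overlap below, beside 6.30%. At an unadjusted p under 0.05, 1 was higher (MT1A) and 1 lower, beside 2.0% and 2.57% of all genes. The lower one was PRDX2, a peroxiredoxin (-0.22 ± 0.094, constant, with overlap), and TXN, a thioredoxin (-0.089), and the sensor KEAP1 (-0.048) were constant.

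Ribosomal proteins had the highest share of constant genes of the 38 lists. Of 62 ribosomal protein genes, 61 were constant, with a median of -0.018, and the exception was RPS19 (-0.26 ± 0.15). RPL13A was at 13.43, 13.37 and 13.37 on day 12 and at 13.42, 13.37 and 13.39 on day 14. GAPDH, a glycolytic enzyme used to normalise PCR, was at 12.20, 12.12 and 12.03 and then at 12.05, 12.06 and 12.10. Both lay at the same level on all 6 arrays to within 0.2. Of 30 genes of cell death and survival, 24 were constant and 0 had an unadjusted p under 0.05 (median -0.0034), with CASP9 at -0.0018, BAD at -0.060 and FAS at 0.023, and BIRC3, an inhibitor of apoptosis, above without overlap at 0.32 ± 0.15. Of 22 genes of endoplasmic reticulum stress, 18 were constant and 0 had an unadjusted p under 0.05 (median 0.0055), with the isomerase PDIA3 at 0.0047. Of 21 cytosolic heat shock proteins, 16 were constant and 16 were below 0 (median -0.11), with HSP90AB1 at -0.22 ± 0.10. Of 42 genes of the lysosome and autophagy, 30 were constant (71.4%), beside 79.3% of all genes. At an unadjusted p under 0.05, 3 were higher, beside 2.0% of all genes. They were GABARAPL1 of the autophagosome (0.31 ± 0.12), the proton pump subunit ATP6V1B2 (0.36 ± 0.14) and CTSS. Of 33 genes of the hypoxia response and glycolysis, 21 were constant, and PFKP, a phosphofructokinase, was at 8.90, 8.52 and 8.05 and then at 7.27, 8.62 and 7.40 (-0.73 ± 0.33), with overlap.

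**Figure D5:**
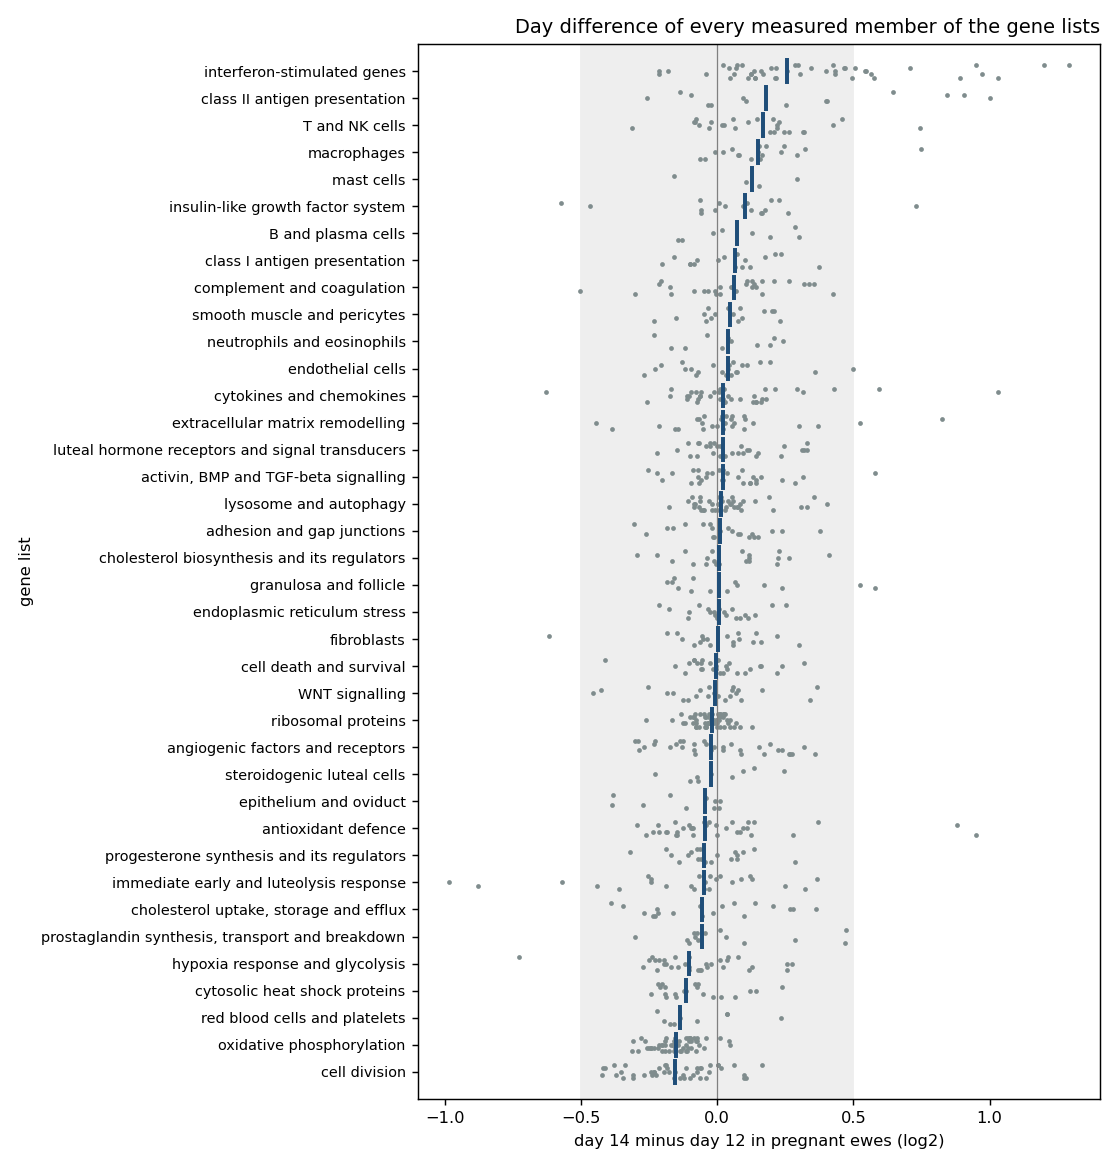
Day difference in pregnant ewes (log2) of every measured member (points) of 38 gene lists, with the median as a bar and the band of 0.5 shaded. The medians run from 0.26 for interferon-stimulated genes to -0.16 for cell division, and 27 of the 38 lie within 0.1 of 0.

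The medians of markers of the gland's structural cell types lay within 0.1 of 0. In the 24 endothelial markers the median was 0.041, with 15 constant (62.5%), 0 higher and 2 lower at an unadjusted p under 0.05. In 16 smooth muscle and pericyte markers it was 0.048 with 11 constant (68.75%), and in 20 fibroblast markers 0.0042 with 15 constant (75%). Over all genes 79.3% were constant, 2.0% higher and 2.57% lower by these rules. DPT, a matrix protein of fibroblasts, was the fibroblast marker with the smallest p, at 9.04, 8.63 and 9.05 on day 12 and 8.81, 7.84 and 8.22 on day 14 (-0.62 ± 0.21), with overlap. Of 18 macrophage markers, 15 were above 0, 4 were constant and 0 had an unadjusted p under 0.05, with a median of 0.15, and ITGAM and CD86 were dim. The median was 0.27 in batch A and 0.040 in batch B, and it was -0.063, with 6 of 18 above 0, without day 12 pregnant replicate 3. CYBB, a phagocyte oxidase subunit, was at 6.59, 8.61 and 8.48 and then at 8.66, 8.86 and 8.41, so day 12 replicate 1 alone lay low (0.75 ± 0.42). The same ewe was the low one in IFI16. The 14 granulosa and follicle markers had a median of 0.0055, with FSHR dim. In 8 B and plasma cell markers the median was 0.073, in 4 mast cell markers 0.13, in 11 neutrophil and eosinophil markers 0.041 with 5 dim, and in 9 red blood cell and platelet markers -0.13 with 5 dim. Of 11 markers of epithelium and oviduct, 9 were below 0 and 3 were without overlap below, beside 6.30% of all genes. PAX8 (-0.38 ± 0.13), MSLN (-0.39 ± 0.14) and KRT7 (-0.17 ± 0.085) had the smallest p.

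Of the 899 different genes in the lists, 563 were constant, 40 were higher and 25 lower at an unadjusted p under 0.05. Over all genes the shares were 79.3%, 2.0% and 2.57%. Other probe sets of a gene disagreed in sign with the brightest one for PTGFR, IER2, IL6R, C2, SREBF1, SREBF2, JUN, GNAS, IGF1, PAPPA, KEAP1, SMAD3, CD3D and F2RL2 among the genes named. Others agreed in sign but were smaller. The median over probe sets was 0.11 for AGTR2, 0.49 for CYBB, 0.19 for BIRC3 and -0.25 for PAX8. The share of constant genes was above that of all genes in 5 lists and below it in 33. Within the lists, complement and coagulation (13 of 30 constant), cytokines and chemokines (27 of 40) and adhesion and gap junction genes (14 of 23) had medians of 0.062, 0.022 and 0.012. IL6R, a cytokine receptor, was at 0.59 ± 0.24 with overlap, C2, a complement protease, was below without overlap at -0.30 ± 0.16, and TJP1, a tight junction protein that is dim here, was below without overlap at -0.26 ± 0.10.

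The interaction asked for which probe sets the day difference in pregnant ewes differed from that in non-pregnant ewes. It passed for 21 probe sets (0.0874%), with 15 lower and 6 higher in pregnancy, and 9 of the 21 were constant between the days of pregnancy. CRYAB, a small heat shock protein, was at 5.37, 5.79 and 5.63 on day 12 of pregnancy and 6.03, 5.91 and 5.56 on day 14 (0.24 ± 0.14). In non-pregnant ewes it rose from 5.83, 5.76 and 5.66 to 7.82, 8.08 and 7.77, and the interaction was -1.96 ± 0.22 (adjusted p = 0.0130 in limma). F2RL2, a protease-activated receptor, was at 5.33, 5.41 and 5.36 and then at 5.37, 5.18 and 5.58 in pregnancy, and rose from 5.97, 5.21 and 5.41 to 7.56, 8.0 and 8.04 without it (interaction -2.16 ± 0.26, adjusted p = 0.0132 in limma). Of the 3 probe sets of F2RL2 only this brightest one passed, and another had an interaction of -1.47 ± 0.30 (adjusted p = 0.149 in limma). In both genes the day 14 non-pregnant arrays lay above the other 9, which overlapped. ABCG8, a sterol exporter, was constant in pregnancy and had an interaction of -0.98 ± 0.14 (adjusted p = 0.0328 in limma). F2RL1, another protease-activated receptor, had -2.57 ± 0.37 and ABCC3, an efflux transporter, -2.19 ± 0.31 (both adjusted p = 0.0394 in limma), with pregnant differences of 0.13 ± 0.24 and 0.076 ± 0.21 whose intervals reached beyond the band.

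EMG1 was the only named gene of the 21 among the 24 genes ranked by p between the days of pregnancy. It was lower on day 14 of pregnancy by value (-0.56 ± 0.11), at 0.61 ± 0.13 in non-pregnant ewes, and its interaction was -1.17 ± 0.17 (adjusted p = 0.0451 in limma). The number of interaction calls moved with single arrays. It was 1 when day 12 pregnant replicate 2 was left out, 3 for replicate 1 of that group, 2 for day 14 pregnant replicate 3, 6 for replicate 2 and 10 for replicate 1 of the same day. Leaving out a day 12 ewe that was not pregnant gave 8 for replicate 1, 6 for replicate 2 and 1 for replicate 3. Leaving out a day 14 ewe that was not pregnant gave 56 for replicate 1 and 76 for replicate 2. Batch A held 2 of the 3 day 14 non-pregnant arrays and 0 of the day 12 non-pregnant ones, so the interaction rests on the batch term. In batch B alone 59 probe sets passed, but there the day 14 non-pregnant group is 1 ewe, assumed to vary like the other groups.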

How the data were processed

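The deposited table held log2 values. Per the submitters' processing notes, the authors used RMA and Affymetrix Expression Console, whose versions are not given in the sources used here. The RMA method corrects background, quantile-normalizes arrays and sums probes, so a shift of all genes cannot be seen, and it gives no detection call. Sheep RNA on bovine probes loses signal at mismatches, so a level depends on the probe set too. Levels of different probe sets were compared only to pick the brightest per gene, to form quartiles and to call probe sets dim. Of 24128 probe sets, 112 controls were left out. GEO's annotation gave 1 symbol for 13292 of the rest, several for 86 and none for 10638, or 9155 genes, each represented by its brightest probe set. Sequences were not used.

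Groups came from source labels; the titles disagree with them for 9 of 12 arrays. Each array is 1 ewe, no 2 arrays were identical, and replicate numbers follow accession order. A linear model with 4 group means and an additive batch term for the 12 arrays was fitted in limma 3.58.1 (R 4.3.3, 7 residual and 4.391 prior degrees of freedom) and checked on simulated data. Tests were two-sided, with Benjamini-Hochberg adjustment over 24016 probe sets and a threshold of 0.05. Intervals are 95%, and dim means a mean level in the lowest quartile, under 3.59.

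The 38 lists, the comparison and the genes were chosen with earlier results of these data known. Of 1267 list entries, 953 were measured. Named are the 12 genes of smallest p in each direction where none passed, up to 3 of smallest p and 3 constant ones of narrowest interval per list, 12 reference genes and the 5 named genes of smallest interaction p. Lists were described by counts and medians. Alternatives were the batch term, arrays in the fit, normalization, dim filter, 1 probe set a gene, moderation, array weights, threshold and each array left out.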

Additional observations from a re-analysis of the deposited data

Results flagged for a closer look

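These probe sets were listed because the day difference in pregnant ewes differed from that in non-pregnant ewes by the interaction test. There were 21, of which 12 had 1 gene symbol. The interaction was below 0 for CRYAB (-1.96), F2RL2 (-2.16), F2RL1 (-2.57), ABCC3 (-2.19), ABCG8 (-0.98), EMG1 (-1.17), CNN1, which encodes calponin of smooth muscle (-1.43), ATP6V1E1, a proton pump subunit (-0.93), CDH1, E-cadherin (-1.74), and a dim further probe set of INSR, the insulin receptor (-1.95). It was above 0 for TGFB2, a growth factor (1.65), and for a further probe set of PPM1K, a mitochondrial phosphatase (1.70). The brightest probe sets of INSR and PPM1K did not pass. In pregnant ewes these 12 had differences between -0.56 and 0.55, and 6 of them were constant. The 9 without a symbol had interactions from -4.23 to 2.25. In limma, each of the 12 had an adjusted p over 0.05 with at least 1 array left out. The highest adjusted p was 0.0901 for CRYAB, without day 12 pregnant replicate 2, and 0.112 for F2RL2, without day 14 pregnant replicate 3.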

How the results depend on the processing

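The count past the threshold between the days of pregnancy was 0 in every setting tried. The count of constant probe sets was 15689 to 20030 with each array left out, the lowest without day 12 pregnant replicate 3. With 1 probe set a gene it was 7213 of 9155, or 78.8%, which the smaller number tested accounts for. The interaction, with 21 calls, had 50 without a batch term and 50 with batch as a random block (24 higher and 26 lower in pregnancy in both), 41 at an adjusted p under 0.10, 7 with 1 probe set a gene (0 higher), 59 in batch B alone, added after seeing the data and with 1 day 14 non-pregnant ewe, and 1 to 76 with each array left out. The cause was not tested. It had 15 to 23 in the other settings. Of the 132 constant genes that the naming rule picks, 101 kept that call with each array left out, 31 lost it at least once and 48, close to 0, had both signs. Of those not constant, 4 turned their sign with an array left out: PTGFR was at -0.080 to 0.36 (also -0.040), PTHLH at -0.084 to 0.52 (also -0.057), F2RL1 at -0.17 to 0.42 and ABCC3 at -0.014 to 0.25. List medians and the left-out values of non-pregnant ewes were additions made after seeing the data. No paired analysis was possible because the labels number no replicates, and the numbers used follow accession order. The number of arrays and the lack of a measure of signal over background limit the precision.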
